A study of Mus musculus with 6 samples.

Results

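Collagen genes of the mouse kidney were followed here across the kidneys of 3 WT and 3 Selenbp1-KO mice. Members were taken by name, as every non-control probe of the array whose gene symbol begins with Col, a type number, the letter a and a chain number. The rule found 95 probes of 56605. Of these, 4 read Col4a3bp, which encodes a ceramide transfer protein and no collagen, and they were kept out of all counts below. This left 91 probes of 44 collagen genes, of which 88 probes passed the detection filter and each of the 44 genes kept at least 1 tested probe. The mice were males, 8 weeks old and fasted for 20 h, and total RNA of the left kidney was labeled with Cy3 and hybridized to 1 array per mouse. The WT group was unmodified C57BL/6J and the other group carried the Selenbp1 knockout, and nothing else in the labels separates them. The WT mice were bought from a breeder, and the methods do not say that they were littermates of the Selenbp1-KO mice. For the making of the Selenbp1-KO mice the methods refer to an earlier study and do not name their background strain. The comparison asks which kidney transcripts differ when Selenbp1, a selenium-binding protein, is missing.

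Collagens are the main structural proteins of the extracellular matrix, and their chains carry long runs in which glycine recurs at a fixed step, which lets the chains wind around each other. In the kidney, the type IV network forms the sheet of the glomerular and tubular basement membranes, while fibrillar collagens, type VI beaded filaments and the collagens that decorate fibrils are made mostly by interstitial fibroblasts and by cells around vessels. Deposition of fibrillar collagen by these cells is the defining feature of renal fibrosis.

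The repeat can be read in some of the probes themselves. A codon that starts with GG encodes glycine, and 4 of the 91 collagen probes held GG at every position that is 9 bases on from the one before, over their whole length of 60 bases. Among all 56605 probes with a sequence, 9 did. The 4 probes are shown because the repeat of the triple-helical part can be read in them, with the GG codons in capitals.
Col5a3: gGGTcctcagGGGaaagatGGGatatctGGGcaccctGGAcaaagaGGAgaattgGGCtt
Col6a3: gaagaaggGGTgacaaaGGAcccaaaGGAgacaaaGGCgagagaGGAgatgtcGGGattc
Col11a2: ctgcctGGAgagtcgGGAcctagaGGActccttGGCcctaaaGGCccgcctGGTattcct
Col15a1: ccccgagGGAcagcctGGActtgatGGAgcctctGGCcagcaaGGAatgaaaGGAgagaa
The files give their places on mm9 as chr9:20590066-20590795 for Col5a3, chr1:92689602-92690594 for Col6a3, chr17:34189287-34189453 for Col11a2 and chr4:47283786-47283845 for Col15a1. The first 3 span more than 60 bases of the genome. Coordinates below are those of the files on mm9, and the exon or UTR of the other probes was not determined here. The Col6a3 repeat probe was well above background on 1 array of each genotype, and the Col5a3, Col11a2 and Col15a1 repeat probes were so on none. The values of Col5a3 and Col6a3 below therefore come from their brighter probes outside the repeat.

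Signals are given as log2 of the scanner's background-subtracted intensity minus log2 of the array's 75th percentile, so that 0 is the 75th percentile of that array. The percentile was between 477 and 751 intensity units, 51.8% to 55.5% of the non-control spots were well above background, and no spot was saturated. All 6 arrays lie on 1 slide. The first index after the slide number in the array barcode was 1 for WT replicates 2 and 3. It was 2 for WT replicate 4 and all Selenbp1-KO replicates. This index is called slide side below, a name given here. The Selenbp1 probe (NM_009150, chr3:94748621-94748680) read 7.07, 7.02 and 7.02 on the WT arrays (replicates 2, 3 and 4, the order kept throughout) against 4.13, 3.98 and 4.10 on the arrays of Selenbp1-KO replicates 1, 2 and 3, which sorts the arrays as labeled. A probe counts as measured if all arrays of either genotype placed it well above background, and a gene is represented by its brightest probe. Differences are Selenbp1-KO minus WT on the log2 scale, and a gene is called higher or lower at an unadjusted p under 0.05 from limma. Over all tested probes, 7.98% were called in either direction. Over all 37027 genes, 6.87% were called higher and 1.13% lower, and the median difference was 0.13. Over the 18361 genes well above background on all 6 arrays, 4.41% were called higher, 1.07% lower, and the median was 0.02. Over the 19263 measured genes these shares were 4.52% and 1.28%, 54.2% had a difference above 0, and in 12.5% and 6.52% the Selenbp1-KO arrays were all above or all below the WT arrays. With 3 arrays in each group, the smallest p of an exact permutation test is 0.10.

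Of the 44 collagen genes, 11 were called higher (Col1a1, Col2a1, Col3a1, Col5a3, Col6a1, Col6a5, Col8a2, Col9a2, Col9a3, Col12a1 and Col24a1) and 1 was called lower (Col6a4), with a median difference of 0.17. Brightness divides this count. In 27 genes the brightest probe was well above background on all 6 arrays: 6 of them were called higher and 0 lower, 22 had a difference above 0 (55.1% of all such genes did), and their median was 0.16. In 10 of the 27 every Selenbp1-KO array exceeded every WT array, and in 1 (Col27a1) the order was the opposite. Among all genes at this brightness, 12.7% and 6.51% did so. Col6a5 and Col8a2 were measured through the Selenbp1-KO arrays only. In 12 genes the brightest probe was well above background on no array, and 2 of these (Col24a1 and Col9a3) were called higher and 1 (Col6a4) lower. With p adjusted by Benjamini–Hochberg across 56097 probes, limma called no collagen gene, and the lowest adjusted p among them was 0.28. Of all genes, 0.0054% passed.

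**Figure D1:**
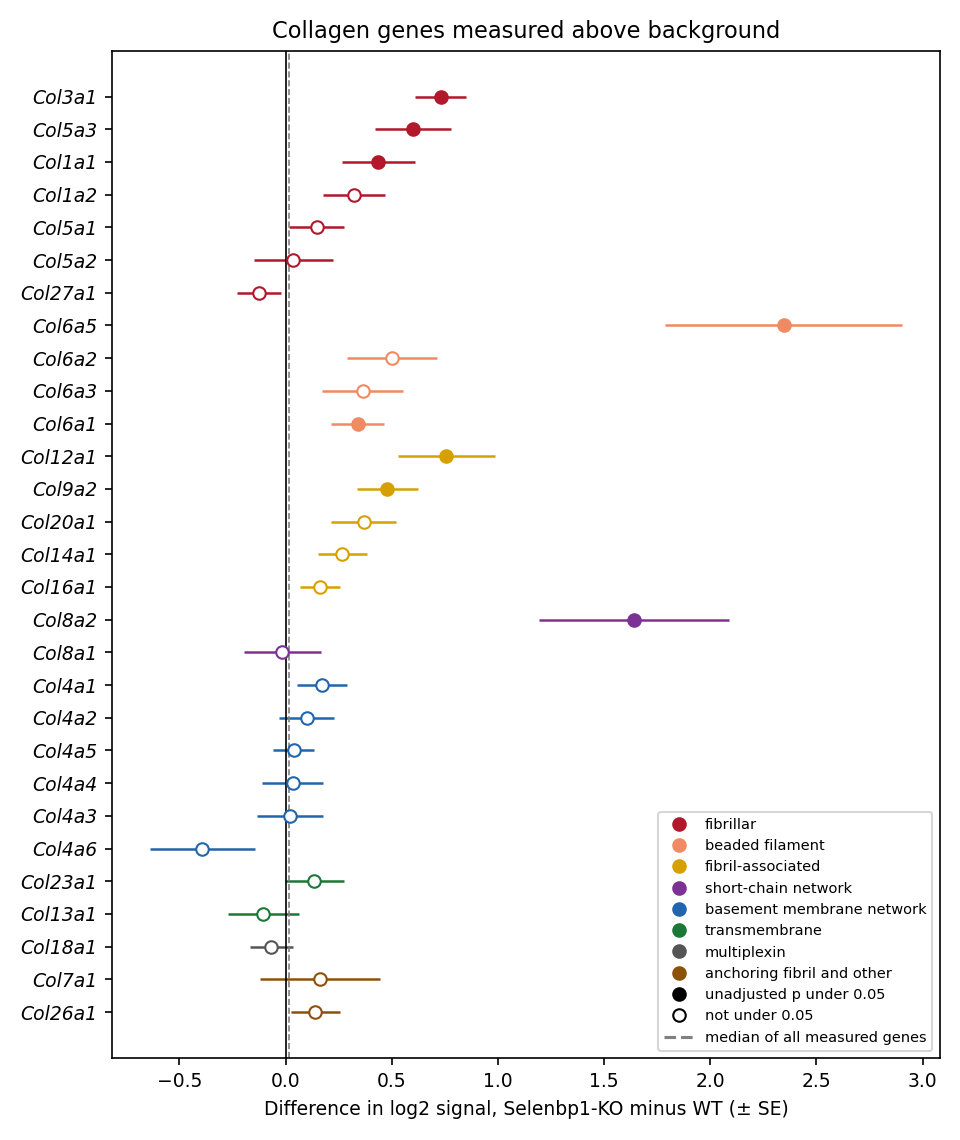
Difference in log2 signal between Selenbp1-KO and WT kidneys (points, with the standard error from limma as bars; n = 3 arrays each) for the 29 measured collagen genes, coloured by class. Filled points have an unadjusted p under 0.05, the dashed line is the median of all measured genes (0.02). Col6a5 and Col8a2 are measured through the Selenbp1-KO arrays only, and of the other 27 points 22 lie above 0.

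The fibrillar collagens form the tensile fibers of the interstitium. Of 11 genes, 7 were measured, 6 of these had a difference above 0, and 3 were called higher, with a median of 0.32 over the measured genes. Over all measured genes of the array, 54.2% had a difference above 0 and 4.52% were called higher. Col3a1, the single chain of type III collagen, which accompanies type I fibers in soft organs, was read by NM_009930 (chr1:45405589-45405648). It read −0.76, −0.46 and −0.52 in WT against 0.09, 0.21 and 0.16 in Selenbp1-KO kidneys. The groups were separated by more than the range within either. The difference was 0.73 (standard error 0.12, unadjusted p = 0.00085 from limma), a 1.66-fold higher signal in Selenbp1-KO kidneys. Leaving out any single array kept it between 0.64 and 0.79. The 2 further Col3a1 probes, of Ensembl transcripts, were well above background on no array, and averaging all 3 probes gave 0.17 and ended the call.

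Type I collagen is built from the products of Col1a1 and Col1a2. Col1a1 (NM_007742, chr11:94813075-94813134) read −0.95, −0.61 and −0.68 in the WT replicates and −0.56, −0.05 and −0.32 in the Selenbp1-KO replicates. The highest WT and the lowest Selenbp1-KO array were next to each other, and Selenbp1-KO replicate 2 was the highest of all. The difference was 0.44 (standard error 0.17, unadjusted p = 0.043 from limma). The other 2 measured Col1a1 probes differed by 0.50 and 0.46. The call of the brightest probe rested on single arrays: limma gave an unadjusted p = 0.132 without WT replicate 2, 0.066 without WT replicate 4, 0.119 without Selenbp1-KO replicate 2 and 0.0904 without Selenbp1-KO replicate 3. Col1a2 (NM_007743, chr6:4490619-4490678) read 2.30, 2.39 and 2.43 in WT and 2.51, 2.96 and 2.61 in Selenbp1-KO kidneys. Its groups did not overlap, its difference was 0.32 (standard error 0.14), and its unadjusted p of 0.067 from limma was not under the threshold. Of its 4 tested probes 3 had a difference above 0 and 1 below. That probe differed by −0.15 and was well above background on 2 WT and 0 Selenbp1-KO arrays. The mean of all Col1a2 probes differed by 0.24.

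Type V collagen sits in the core of interstitial fibrils and sets their diameter. Col5a3 (NM_016919, chr9:20574592-20574651) read −2.82, −2.74 and −2.95 in WT and −2.15, −1.97 and −2.58 in Selenbp1-KO kidneys. All Selenbp1-KO arrays were above all WT arrays, with Selenbp1-KO replicate 3 closest to WT. The difference was 0.60 (standard error 0.18, unadjusted p = 0.015 from limma), and it lost the call only without Selenbp1-KO replicate 1, at 0.56, among the arrays left out in turn. The other type V chains did not follow at that size: Col5a1 differed by 0.15 and Col5a2 by 0.04, with overlapping groups in both. Whether these differences differ from that of Col5a3 was not tested.

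Col27a1, a fibrillar collagen of cartilage, had 2 measured probes. NM_025685 (chr4:62995485-62995544) read −0.39, −0.22 and −0.36 in WT and −0.53, −0.41 and −0.41 in Selenbp1-KO kidneys, differing by −0.13 with an unadjusted p of 0.27 from limma. The probe of the Ensembl transcript ENSMUST00000125504 read −1.98, −2.56 and −2.76 in WT and −3.78, −2.91 and −4.01 in Selenbp1-KO kidneys, differing by −1.13 (standard error 0.34, unadjusted p = 0.016 from limma). Both probes were lower in every Selenbp1-KO array than in every WT array, and they differed in size. With normexp background correction the second probe fell by 0.41 on the log2 scale. Without Selenbp1-KO replicate 1 its p was 0.051.

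**Figure D2:**
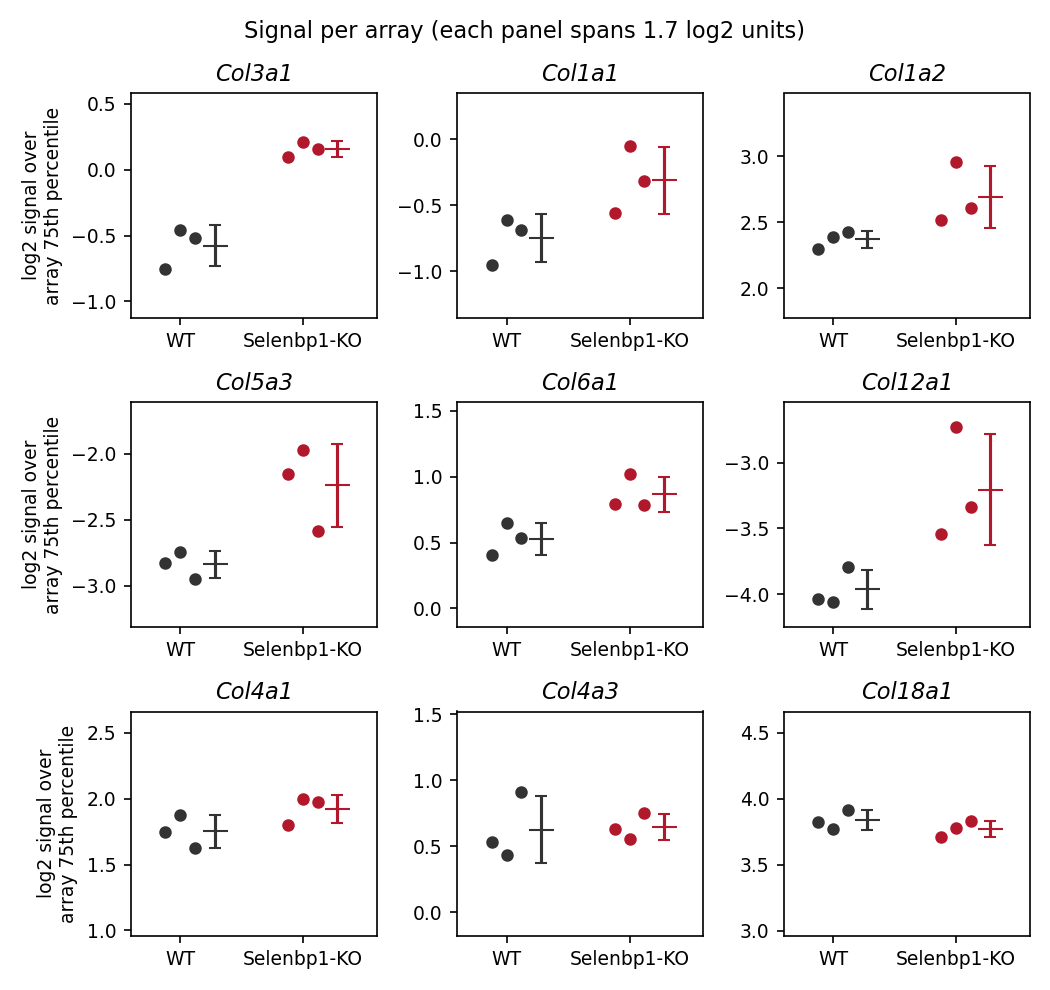
Log2 signal relative to the array's 75th percentile on each of the 3 WT and 3 Selenbp1-KO arrays for 9 collagen genes, with the group mean ± SD beside the points. Col3a1 shows a wide gap between the groups, Col1a1, Col1a2, Col5a3, Col6a1 and Col12a1 a narrow one, and the groups overlap for Col4a1, Col4a3 and Col18a1.

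The remaining fibrillar genes were near background. Col2a1, the cartilage collagen (NM_031163), read −5.19, −5.86 and −4.67 in WT, well above background on 0 of 3 arrays, and −4.51, −4.58 and −3.83 in Selenbp1-KO kidneys, well above background on 2 of 3. The difference was 0.94 (standard error 0.35, unadjusted p = 0.038 from limma). With WT values under their array's lowest well-measured signal raised to it, the Selenbp1-KO mean was 1.72-fold higher. This fold carries no sampling error, and with normexp background correction the difference was 0.39. Leaving out WT replicate 2, WT replicate 3, Selenbp1-KO replicate 1 or Selenbp1-KO replicate 3 ended the call, as did normexp, quantile normalization, the authors' values, a test without moderated variances and slide side as a block. Col24a1 was called higher at 0.49, but neither of its probes was well above background on any array, and 5 of its 6 values were the scanner's surrogate for a spot not above background. Col11a1 (−0.44) and Col11a2 (0.56) were not called, and their second tested probes went the other way (0.66 and −0.47). The second Col11a1 probe had an unadjusted p of 0.025 from limma with surrogate values on 5 of 6 arrays.

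Type VI collagen forms beaded filaments that link cells to the interstitial fibrils, from the products of Col6a1, Col6a2 and a longer chain such as that of Col6a3. Of 6 genes, 3 were well above background on all 6 arrays (Col6a1, Col6a2 and Col6a3), all with a difference above 0, and 1 of them was called higher. Over all genes at this brightness, 55.1% had a difference above 0 and 4.41% were called higher. Col6a1 (NM_009933, chr10:76171538-76171597) read 0.40, 0.65 and 0.53 in WT and 0.80, 1.02 and 0.78 in Selenbp1-KO kidneys. The groups did not overlap, and the difference was 0.34 (standard error 0.12, unadjusted p = 0.033 from limma). Its p rose to between 0.0525 and 0.112 when WT replicate 2 or 4 or any 1 of the Selenbp1-KO replicates was left out, while the difference stayed between 0.26 and 0.40. Col6a2 (NM_146007, chr10:76058931-76058990) read −3.76, −3.16 and −2.99 in WT and −2.84, −2.80 and −2.75 in Selenbp1-KO kidneys, differing by 0.50 with an unadjusted p of 0.054 from limma. WT replicate 2 was the lowest array by a wide margin, and without it the difference was 0.27. Both further Col6a2 probes were higher as well (0.54 with an unadjusted p = 0.038 and 1.22 with an unadjusted p = 0.00071 from limma), the first well above background on 2 arrays of each genotype and the second on none.

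Col6a3 (NM_001243008, chr1:92663663-92663722) read −1.48, −1.42 and −0.88 in WT and −0.94, −0.74 and −1.02 in Selenbp1-KO kidneys. WT replicate 4 lay among the Selenbp1-KO arrays. Selenbp1-KO minus WT was 0.36 (standard error 0.19, unadjusted p = 0.11 from limma), and it was −0.02 in the fit with slide side as a block, in which the Selenbp1-KO arrays are compared with WT replicate 4 alone. Without WT replicate 4 it was 0.55 with an unadjusted p = 0.00695 from limma. Its repeat probe, printed above, differed by 0.52 and the remaining Col6a3 probe by −0.09, both uncalled.

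Col6a5, an alternative long chain (NM_001167923, chr9:105759441-105759500), read −7.04, −4.73 and −5.92 in WT and −3.33, −3.65 and −3.67 in Selenbp1-KO kidneys. Only 1 of 3 WT arrays placed it well above background, against 3 of 3 from Selenbp1-KO mice. The difference of 2.35 (standard error 0.56, unadjusted p = 0.0055 from limma) depends on how the faint WT signal is treated: with normexp background correction it was 0.71 and with the mean of its 3 probes 0.93. Its direction and its call held in each of 20 alternatives, but several of these left its difference at 2.35 by construction. They were the other filters, keeping outlier-marked spots, limma's trend and robust options, a test without moderated variances and a minimum difference of 0.5. Its direction could not turn in them. The other 2 probes of the gene were well above background on no array. Col6a4, another long chain, was called lower (−0.84, unadjusted p = 0.00075 from limma) on a probe that was well above background on no array. Its values were −5.45, −5.48 and −5.40 in WT and −6.07, −6.28 and −6.49 in Selenbp1-KO kidneys, and its direction turned with normexp background correction (0.17). The second Col6a4 probe had surrogate values on all 6 arrays.

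Among the collagens that coat fibrils or bridge them to their surroundings, 5 of 9 genes were measured, all 5 had a difference above 0, and 2 were called higher. The shares over all measured genes were 54.2% above 0 and 4.52% called higher. Col12a1 (NM_001290308, chr9:79446895-79446954), which lies along type I fibrils in dense connective tissue, read −4.04, −4.06 and −3.79 in WT and −3.54, −2.73 and −3.34 in Selenbp1-KO kidneys. The groups did not overlap, and Selenbp1-KO replicate 2 was the highest. The difference was 0.76 (standard error 0.23, unadjusted p = 0.016 from limma), it was 0.52 without Selenbp1-KO replicate 2, and it was called without any single array. It lost its call with slide side as a block (0.59) and was 0.50 with normexp background correction. Col9a2 (NM_007741, chr4:120727698-120727757), a chain of a collagen best known from cartilage fibrils, read −4.41, −4.46 and −4.66 in WT and −4.11, −3.80 and −4.18 in Selenbp1-KO kidneys, differing by 0.48 (standard error 0.15, unadjusted p = 0.016 from limma). Its call held without any single array and was lost with limma's trend and robust options (unadjusted p = 0.0942).

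Col14a1 and Col16a1, which bind fibrils in interstitial and vascular matrix, had higher values on every Selenbp1-KO array than on any WT array, but neither was called. Col14a1 (NM_181277, chr15:55347733-55347792) read −2.61, −2.49 and −2.54 in WT and −2.36, −2.37 and −2.11 in Selenbp1-KO kidneys (0.27, unadjusted p = 0.060 from limma). Col16a1 (NM_028266, chr4:129776333-129776392) read 0.79, 0.72 and 0.82 in WT and 0.98, 0.95 and 0.89 in Selenbp1-KO kidneys (0.16, unadjusted p = 0.13 from limma). Col20a1 differed by 0.37 with overlapping groups. Col9a3 was called higher (0.88) with no array well above background and surrogate values on 4 of 6, and Col9a1, Col19a1 and Col22a1 were dim as well, at −0.08, 0.09 and 0.55.

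Type VIII collagen makes short-chain lattices in vessel walls and in the corneal endothelium. Col8a2 (NM_199473, chr4:125991441-125991500) read −5.55, −4.33 and −6.14 in WT and −3.83, −3.56 and −3.70 in Selenbp1-KO kidneys, well above background on 1 of 3 and 3 of 3 arrays. All Selenbp1-KO arrays were above the highest WT array, and the Selenbp1-KO values were much closer together. The difference was 1.64 (standard error 0.45, unadjusted p = 0.010 from limma), and it was 0.52 with normexp background correction and 1.01 with the mean of its 2 probes. Col8a2 was called in each of 20 alternatives, but those named for Col6a5 as leaving the difference unchanged also left that of Col8a2 at 1.64 by construction. Its partner Col8a1 differed by −0.02 with overlapping groups. Col10a1, of the growth plate, was at the surrogate value on all 6 arrays.

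The type IV chains form the network of basement membranes, the pair Col4a1 and Col4a2 in nearly all of them and Col4a3, Col4a4 and Col4a5 in the glomerular filter. All 6 genes were measured on all 6 arrays, 0 were called in either direction, and their median difference was 0.04. Col4a1 (NM_009931, chr8:11199009-11199068) read 1.75, 1.88 and 1.63 in WT and 1.80, 1.99 and 1.97 in Selenbp1-KO kidneys, differing by 0.17 (standard error 0.12). Col4a2 (NM_009932, chr8:11448840-11448899) read 1.58, 1.77 and 1.44 in WT and 1.58, 1.78 and 1.72 in Selenbp1-KO kidneys, differing by 0.10 (standard error 0.13). The arrays of both genotypes interleaved for both genes. In the RefSeq annotation of GRCm38.p6 the starts of Col4a1 (minus strand) and Col4a2 (plus strand) lie 21 bases apart on chromosome 8.

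Col4a3 (NM_007734, chr1:82714546-82715399) read 0.53, 0.43 and 0.91 in WT and 0.63, 0.56 and 0.75 in Selenbp1-KO kidneys, differing by 0.02 (standard error 0.16). Col4a4 (ENSMUST00000087050, chr1:82445053-82445112) read 1.69, 1.57 and 2.03 in WT and 1.81, 1.83 and 1.75 in Selenbp1-KO kidneys, differing by 0.03 (standard error 0.14). In both genes WT replicate 4 was the highest array, so that with slide side as a block the differences were −0.26 and −0.23. Col4a5 (NM_001163155, chrX:138123547-138123606) read 0.54, 0.44 and 0.57 in WT and 0.52, 0.57 and 0.57 in Selenbp1-KO kidneys, differing by 0.04 (standard error 0.097). Second probes of Col4a4 and Col4a5 differed by −0.05 and 0.01. Col4a6 (NM_053185, chrX:137599990-137600049), a chain of smooth muscle and distal epithelial basement membranes, read −1.49, −1.93 and −1.67 in WT and −2.25, −1.59 and −2.43 in Selenbp1-KO kidneys. Selenbp1-KO replicate 2 stood apart from the other Selenbp1-KO arrays. Selenbp1-KO minus WT was −0.39 (standard error 0.25, unadjusted p = 0.16 from limma), and without Selenbp1-KO replicate 2 it was −0.64 with an unadjusted p = 0.0142.

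The multiplexin Col18a1 (NM_009929, chr10:76515820-76515879), a basement membrane collagen whose end fragment is endostatin, read 3.83, 3.77 and 3.92 in WT and 3.71, 3.78 and 3.83 in Selenbp1-KO kidneys, differing by −0.07 (standard error 0.10). Both probes of its relative Col15a1 were well above background on no array. Of the transmembrane collagens, Col13a1 differed by −0.10 and Col23a1 by 0.14, and Col17a1 and Col25a1 were not measured. The second measured Col13a1 probe differed by 0.24 and its dim further probe by 0.81. Another Col25a1 probe differed by 0.55 (unadjusted p = 0.016 from limma) while well above background on no array. Col7a1, of the anchoring fibrils below epithelia, differed by 0.16 and the less known Col26a1 by 0.14, with all 3 Col26a1 probes above 0 (0.10 to 0.23). Col6a6 and Col28a1 were well above background on no array.

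The dim probes cannot be ordered. Of 88 tested collagen probes, 37 were measured, 15 had surrogate values on all 6 arrays, and 36 lay between. The 15 surrogate probes all differed by 0.36 to 0.40, and so did the 8905 such probes of the whole array (0.36 to 0.41), of which 0 were called higher. On the log2 scale the 75th percentile itself was 0.27 lower in Selenbp1-KO than in WT arrays, and its part in the 0.38 by which these probes differed in the median was not tested.

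**Figure D3:**
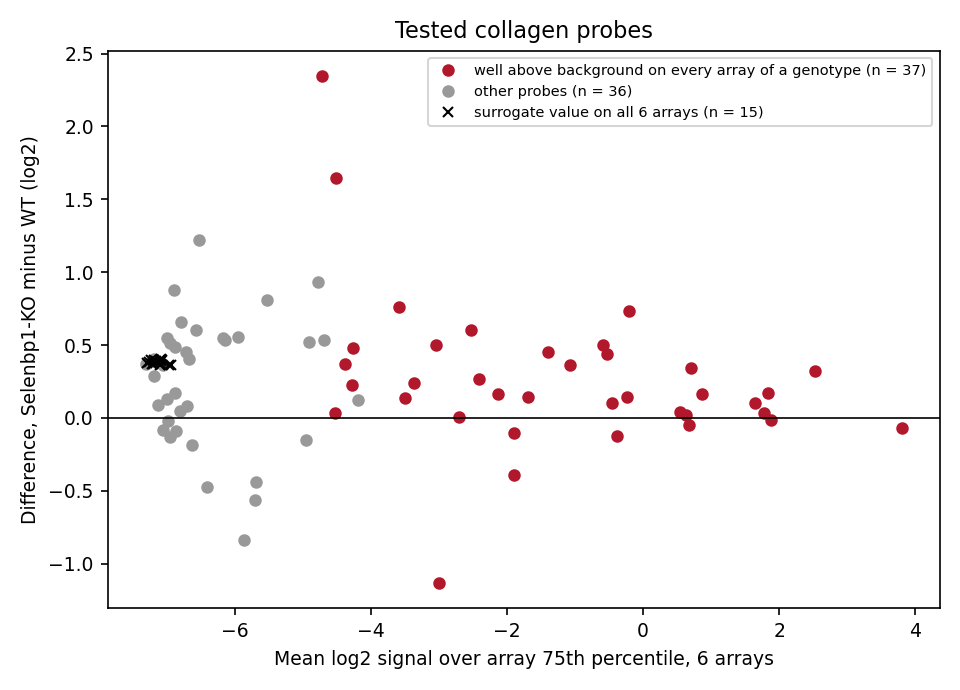
Each tested collagen probe by its mean log2 signal over 6 arrays relative to the 75th percentile and its difference between genotypes, with 37 measured probes in red, 15 probes at the surrogate value as crosses and the 36 others in grey. The crosses form a tight group near 0.38, and the grey probes scatter widely at the low end of the signal.

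RefSeq windows of 250 bases before the start were matched for 35 of the 44 collagen genes, in 38 windows. Those of Col1a1, Col2a1, Col4a3, Col5a2, Col9a3, Col12a1, Col14a1, Col22a1 and Col26a1 were not used here. The windows of the 4 genes below are shown because they belong to interstitial collagens with higher signal in every Selenbp1-KO array than in any WT array. They come from RefSeq on GRCm38.p6 and are printed on the strand of the gene, with 3 promoter motifs on either strand in capitals, namely TATAAA (the TATA box), the CCAAT box and the GC box GGGCGG.
Col3a1: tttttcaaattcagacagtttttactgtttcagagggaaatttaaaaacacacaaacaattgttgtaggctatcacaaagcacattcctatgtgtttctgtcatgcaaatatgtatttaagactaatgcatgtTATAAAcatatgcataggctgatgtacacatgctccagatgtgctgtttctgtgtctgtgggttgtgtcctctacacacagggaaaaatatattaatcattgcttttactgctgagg
Col1a2: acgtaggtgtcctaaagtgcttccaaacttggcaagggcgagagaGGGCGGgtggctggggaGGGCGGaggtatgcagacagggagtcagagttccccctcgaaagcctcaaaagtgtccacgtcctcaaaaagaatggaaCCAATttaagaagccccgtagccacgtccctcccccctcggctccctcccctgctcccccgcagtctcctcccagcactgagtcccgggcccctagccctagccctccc
Col5a3: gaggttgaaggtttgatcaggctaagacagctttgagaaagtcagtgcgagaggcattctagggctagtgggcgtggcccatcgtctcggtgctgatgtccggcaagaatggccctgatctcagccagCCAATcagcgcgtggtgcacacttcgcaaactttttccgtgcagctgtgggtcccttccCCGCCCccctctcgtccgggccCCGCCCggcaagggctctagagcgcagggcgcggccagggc
Col6a1: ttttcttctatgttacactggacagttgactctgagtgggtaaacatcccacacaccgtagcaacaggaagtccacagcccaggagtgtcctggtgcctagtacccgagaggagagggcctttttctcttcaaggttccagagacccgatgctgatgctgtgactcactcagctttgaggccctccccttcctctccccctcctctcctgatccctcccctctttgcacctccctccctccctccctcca
The windows are chr1:45311288-45311537 (plus strand) for Col3a1, chr6:4505368-4505617 (plus) for Col1a2, chr9:20815068-20815317 (minus) for Col5a3 and chr10:76726045-76726294 (minus) for Col6a1. Col1a2 and Col5a3 each hold CCAAT once and GGGCGG in 2 places, Col3a1 holds TATAAA once, from 117 to 112 bases before its start, and Col6a1 holds none of these letters. Over the 38 collagen windows, TATAAA was in 13.2%, CCAAT in 34.2% and GGGCGG in 57.9%, against 12.4%, 33.8% and 32.7% of all 32851 windows of this length. The motifs do not overlap each other in their letters, and a match here describes the sequence only.

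The proteins that make, assemble and remove collagen were taken from 7 lists of 96 genes in all, of which 12 were called higher and 0 lower, where 6.87% of all genes were called higher and 4.52% of the measured ones. Enzymes and chaperones of the endoplasmic reticulum that hydroxylate and fold the chains had 0 of 18 genes called and a median of 0.05. Among them, Serpinh1, the collagen chaperone, differed by 0.21 (unadjusted p = 0.18 from limma), P4ha1, a prolyl hydroxylase subunit, by −0.19, and P3h3, the largest measured difference, by 0.22. Of 14 genes that cut propeptides and cross-link fibrils, 3 were called higher. Adamts2, which removes the amino propeptide of fibrillar procollagens, read −0.93, −0.82 and −1.05 in WT and −0.34, 0.07 and 0.00 in Selenbp1-KO kidneys, differing by 0.84 (standard error 0.15, unadjusted p = 0.0012 from limma). Pcolce2, an enhancer of the protease for the other propeptide, differed by 0.47 and Loxl1, a lysyl oxidase, by 0.44, while Bmp1 (−0.09) and Lox (0.02) were not called.

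Of 10 matrix proteins that bind collagen, 3 were called higher. Lum, lumican, a small proteoglycan that spaces fibrils, read −2.94, −2.74 and −3.02 in WT and −2.12, −1.81 and −2.21 in Selenbp1-KO kidneys, differing by 0.85 (standard error 0.15, unadjusted p = 0.0012 from limma). Dcn, decorin, of the same family, read 3.84, 4.18 and 3.53 in WT and 4.54, 4.91 and 4.61 in Selenbp1-KO kidneys, differing by 0.83. Tnxb, tenascin X, differed by 0.81. For these 3 genes no WT array reached the lowest Selenbp1-KO array. Bgn, biglycan, differed by 0.09 and Fn1, fibronectin, by 0.15, and neither was called.

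Of 17 genes of collagen breakdown and uptake, 4 were called higher: the matrix metalloproteinases Mmp2 (0.61) and Mmp14 (0.42), cathepsin K (Ctsk, 0.35) and the fibroblast protease Fap (1.32, well above background on 2 of 3 WT arrays). The inhibitors Timp1, Timp2 and Timp3 differed by −0.15, 0.03 and 0.02. Of 10 collagen receptors only Gp6 was called, with 0 WT arrays and 1 Selenbp1-KO array well above background. With its WT values raised as for Col2a1, its Selenbp1-KO mean was 1.35-fold higher. Itga1, Itgb1, Ddr1 and Ddr2 were not called. Of 15 laminin, nidogen, perlecan and agrin subunits, which share the basement membrane with type IV collagen, 0 were called, with a median of 0.02 and the largest difference at Lamb3 (−0.67, overlapping groups). Of 12 genes of TGF-beta signaling, the main inducer of fibrillar collagen, only its target Tgfbi was called (0.43), a share near that over all genes, while Tgfb1 (0.21) and Ccn2 (0.08) were not.

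Markers of cell types that a kidney sample can hold were set beside these values, with the same 6.87% of all genes and 4.52% of measured genes called higher as the background. All 12 genes listed as markers of connective tissue fibroblasts had a difference above 0 and 5 were called higher (Mfap5 1.40, Pi16, Dpt 1.08, Scara5 0.79 and Gsn 0.63), with a median of 0.58. Their summed level on the linear scale, in units of the 75th percentile, was 30.7 to 34.5 in WT and 39.2 to 49.3 in Selenbp1-KO arrays, without overlap. The list includes Cd34 and Dpep1, and how far other kidney cells supply the signal of its genes was not tested. Pdgfra (0.07) and Pdgfrb (0.33), which mark interstitial fibroblasts and pericytes broadly, were not called. All 8 macrophage markers were above 0 and 5 were called (Mrc1, C1qa, C1qb, C1qc and Cd68), with sums of at most 12.6 in WT and at least 13.3 in Selenbp1-KO arrays. All 8 fat markers were above 0 and 0 were called, with sums that overlapped (27.0 to 73.9 and 39.1 to 178). All 6 urothelium markers were above 0 and 0 were called (13.3 to 16.1 and 12.9 to 37.1), and of 5 tested mesothelium and capsule markers 4 were measured, all above 0, and 1 dim one was called (4.58 to 5.52 and 4.47 to 10.1). The fat, urothelium and mesothelium markers were highest in Selenbp1-KO replicate 2, as were the fibroblast markers (median deviation 0.58, against 0.12 and 0.09 in the other Selenbp1-KO arrays). That array also had the highest values of Col1a1, Col1a2, Col3a1, Col5a3, Col6a1, Col8a2, Col9a2 and Col12a1, among other collagens, but not of Col6a5. Without that array 8 of 44 collagen genes were called higher, against 3.19% of all genes (1.68% lower), with Col3a1, Col5a3, Col6a5, Col8a2, Col9a2 and Col12a1 among them. Of 9 smooth muscle and pericyte, 8 podocyte, 10 endothelial and 8 proximal tubule markers, 0, 1 (Synpo), 0 and 0 were called, with medians of −0.06, 0.00, 0.03 and −0.01. Adrenal markers were mostly at background: Cyp11b1, Cyp11b2, Dbh and Pnmt were well above it on no array. Of the distal nephron and collecting duct markers 1 of 9 was called (Pvalb), with a median of 0.11. The part of fibroblasts, macrophages, fat or other tissue in the collagen differences was not tested. In a whole kidney, a change in the number of cells of a type and a change in RNA per cell cannot be told apart.

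**Figure D4:**
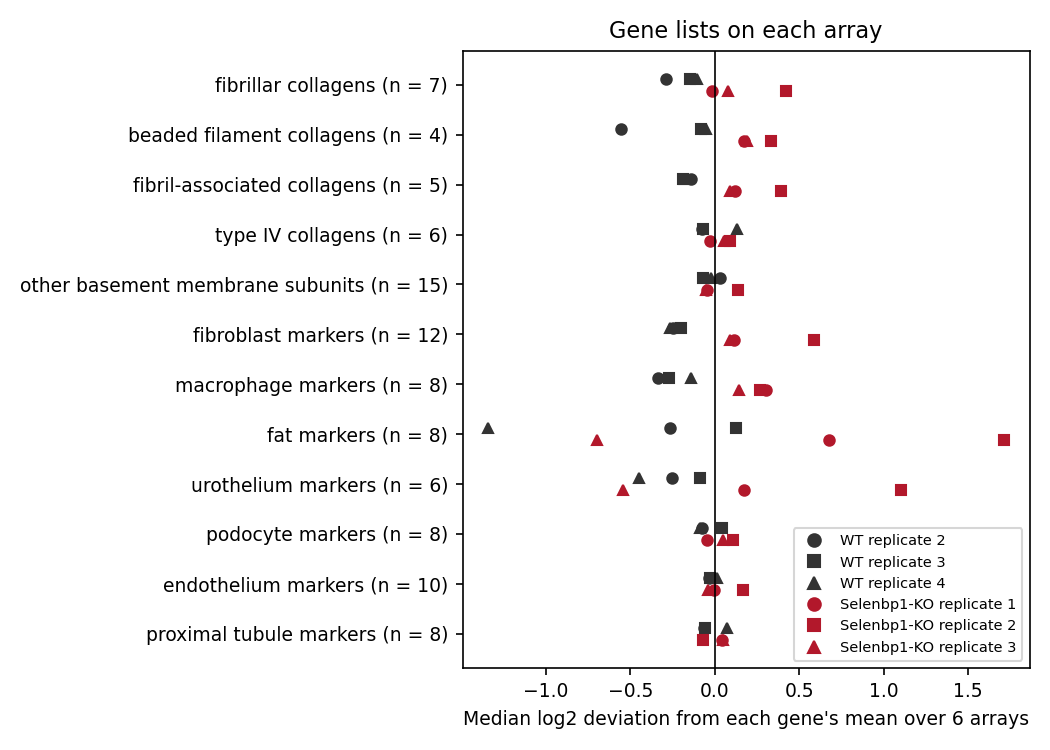
Median log2 deviation of each gene list on each array from the gene's mean over all 6 arrays (x axis; symbols mark replicates, black WT and red Selenbp1-KO), over the n measured genes given beside each list (the beaded filament genes include Col6a5). Fibrillar, beaded filament and fibril-associated collagens and the fibroblast and macrophage markers place every Selenbp1-KO array to the right of every WT array, whereas type IV collagens and the podocyte, endothelium and proximal tubule markers stay within 0.2 of 0.

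The arrays of both genotypes were not spread evenly over the slide. On the side that held both genotypes, 6 collagen genes were called higher against WT replicate 4 alone (Col3a1, Col5a3, Col6a5, Col8a2, Col9a2 and Col23a1) and 3 lower (Col6a4, Col6a6 and Col9a1, none well above background on any array), where 2.44% of all genes were called higher and 3.65% lower. In that fit Col3a1 differed by 0.67, Col5a3 by 0.71, Col1a1 by 0.37, Col1a2 by 0.27, Col6a1 by 0.33 and Col12a1 by 0.59. Col6a5 and Col8a2 were not well above background on WT replicate 4. The lone WT array is assumed there to vary like the others.

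**Figure D5:**
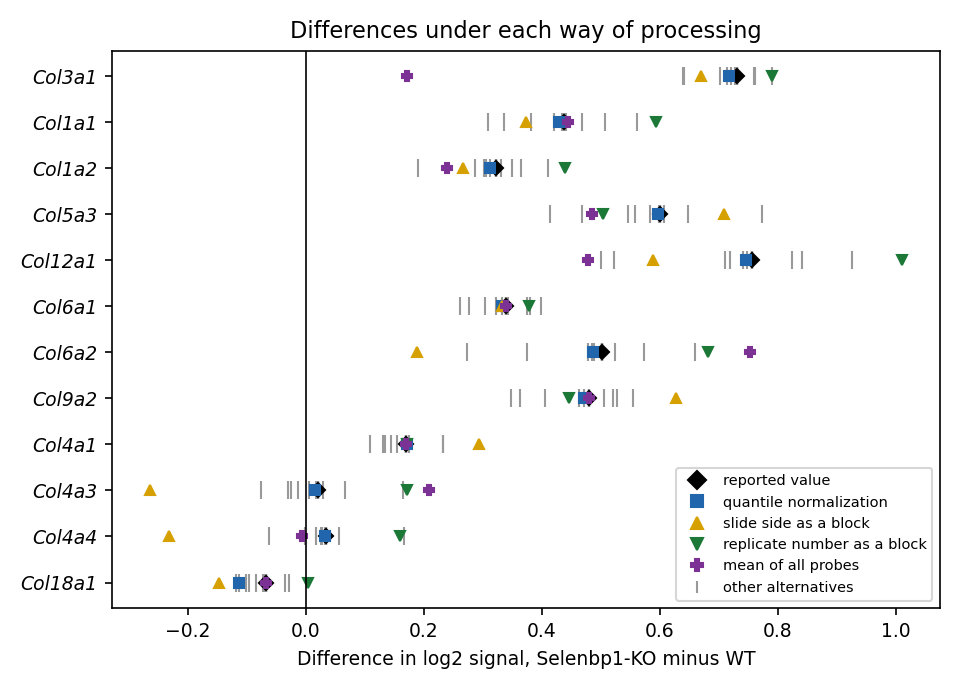
Difference in log2 signal for 12 collagen genes as reported (diamonds) and under each alternative way of processing, with quantile normalization, slide side as a block, replicate number as a block and the mean of all probes marked and all others as grey bars. Col3a1 to Col9a2, the upper genes of the plot, keep values above 0 throughout, Col3a1 falls to 0.17 with the mean of its probes, and Col4a3 and Col4a4 fall on both sides of 0.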

How the data were processed

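Kidney RNA of 3 WT and 3 Selenbp1-KO mice was measured on 1-colour Agilent arrays. The authors deposited the scanner output, linear intensity values that Feature Extraction had background-subtracted and detrended within an array and left unscaled across arrays, plus a p-value of each spot against its background (version 9.5.1.1 per the labels, 10.7.1.1 per the file headers). They also deposited a table of quantile normalized intensity per probe, used as an alternative. The methods name limma at an unadjusted threshold for the arrays, the test used here.

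Log2 intensity was set relative to the array's 75th percentile over non-control spots, outlier-marked spots were left out and spots of a probe averaged. The 56097 probes detected (p under 0.05) on 1 array or more entered a two-sided limma fit by lmFit and eBayes (limma 3.58.1 in R 4.3.3). The threshold of the methods, an unadjusted p under 0.05, made a call, with Benjamini–Hochberg adjustment over all probes. Accessions were matched to RefSeq (GRCm38.p6), which named 32994 probes. The folds of Col2a1 and Gp6 set the brighter group's mean against, per array, its lowest well-measured signal or the dim probe's own, whichever was higher. They are no lower limits of the differences. Alternatives were normexp (offset 50), quantile and median scaling, the authors' values, other filters, marked spots kept, limma's trend with robust fitting (statmod 1.5.0), a plain t-test, slide side and replicate blocks, each array left out, the mean of probes and a difference of at least 0.5. The comparison was tested on simulated data. No 2 arrays held identical values. That arrays are separate mice is taken from the labels.

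Members, gene lists and tests were chosen with earlier results of these data known. Named were Col1a1, Col1a2, Col3a1, the type IV chains, Col6a1 to Col6a3, Col15a1 and Col18a1, collagens with any probe under the threshold or measured without overlap, those whose probes differ in direction, Selenbp1, and up to 4 called genes of each partner list or else its measured gene with the largest difference. Other genes in the text were named after their values were seen.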

Additional observations from a re-analysis of the deposited data

How the results depend on the processing

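The reported count of 11 collagen genes called higher was 6 with slide side as a block, 7 with a log2 difference of at least 0.5, and between 7 and 15 when each array was left out in turn (7 without WT replicate 2, 15 without WT replicate 4). It was within 1.5 times the reported count under the other alternatives. Without WT replicate 4, 17585 of 56097 probes were called in either direction, a share near that of the 15 of 44 collagen genes. Without WT replicate 2, 2024 of 56097 probes were called, beside 7 of 44 collagen genes. The count called lower, 1 as reported, was 0 with normexp background correction, with probes measured in a genotype alone and with the trend and robust options, 3 with slide side as a block, and 1 to 2 with an array left out. The partner genes called, 12 as reported, numbered 19 with normexp, with quantile normalization and with the authors' values, 20 with the trend and robust options, 7 with a difference of at least 0.5, and 10 to 19 with an array left out (19 without WT replicate 4). Whether any of these partner counts rose beyond the share of all probes called under the same setting was not tested. Over all probes 4479 were called (3632 higher, 847 lower), against 14616 with median scaling, 2841 with measured probes alone, 7536 with the trend and robust options, 2799 with a difference of at least 0.5, and 2024 (without WT replicate 2) to 17585 (without WT replicate 4) with an array left out. Quantile normalization gave 2527 higher and 2170 lower. A plain t-test with equal variances called 3978 probes and 10 collagen genes higher, and after Benjamini–Hochberg adjustment 2 probes and 0 collagen genes. The causes were not tested. The median collagen difference was 0.14 to 0.33 under all alternatives, and that of Selenbp1 −3.03 to −2.92.

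Col3a1, Col12a1 and Col9a2 kept their call with any array left out, as did Col6a5 and Col8a2, which were measured through the Selenbp1-KO arrays only. Col3a1 lost it with the mean of all probes, Col12a1 with slide side as a block, and Col9a2 with the trend and robust options and with a difference of at least 0.5. Differences that turned were those of Col4a3, Col4a4, Col4a5, Col18a1 and Col13a1, which were near 0, of Col6a3, and of the dim genes Col6a4, Col9a1, Col11a1, Col17a1 and Col25a1. With normexp they were 0.0128 for Col13a1, 0.17 for Col6a4, 0.15 for Col11a1, 0.22 for Col9a1, 0.14 for Col25a1, −0.0129 for Col4a3 and 0.12 for Col17a1. With slide side as a block they were 0.0801 for Col13a1, −0.23 for Col4a4, −0.0158 for Col6a3, −0.017 for Col4a5 and −0.26 for Col4a3. With the mean of all probes they were 0.11 for Col11a1, 0.32 for Col13a1, 0.26 for Col25a1, −0.00645 for Col4a4 and 0.14 for Col9a1. With an array left out the lowest and highest values were −0.79 and 0.0228 for Col11a1, −0.20 and 0.0388 for Col13a1, −0.45 and 0.10 for Col25a1, −0.0748 and 0.16 for Col4a3, −0.0628 and 0.17 for Col4a4, −0.00297 and 0.0645 for Col4a5 and −0.37 and 0.29 for Col9a1.

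Replicate numbers 2 and 3 occur in both genotypes, and the labels do not say that they pair the mice. With the replicate number as a block, the difference comes from replicates 2 and 3 alone. The count called was then 18430 of 56097 probes, 14 of 44 collagen genes higher and 13 partner genes. The collagen share was near that of all probes called in either direction. Col1a1, Col5a3, Col6a1 and Col9a2 lost their calls. Col18a1 then differed by 0.00376, Col11a1 by 0.0812 and Col9a1 by 0.30. Deviations from the group means correlated at 0.171 and 0.187 for the same-numbered arrays and at −0.326 to 0.186 for the others. Signal over background limits every gene whose brightest probe is well above background on no array.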
